A study of Mus musculus with 6 samples.

Results

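The 10 genes described here encode the proteins that release fatty acids from lipoproteins, carry them across the plasma membrane and bind them inside the cell: Lpl, Vldlr, Cd36, Slc27a1, Slc27a2, Slc27a4, Fabp1, Fabp2, Fabp4 and Fabp7. They were chosen by symbol from a written list, and all 10 were found among the 18453 genes with an expected count in at least 1 liver. Triglyceride in the lipoproteins of the blood is split by lipoprotein lipase on the surface of capillaries, and the fatty acids set free enter cells with the help of CD36 and of the fatty acid transport proteins (FATPs), which also join them to coenzyme A. Fatty acid binding proteins (FABPs) then carry these insoluble molecules through the cytosol. Hepatocytes are rich in FABP1, FATP2 and FATP5, while lipoprotein lipase, FABP4 and the VLDL receptor are better known from adipose tissue, muscle, macrophages and endothelium.

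Liver RNA was sequenced from 6 Mettl14f/f male mice, in which both alleles of Mettl14, the structural subunit of the m6A methyltransferase, carry loxP sites. All 6 mice were started on a high-fat diet (HFD) at 8 weeks of age and received a vector through the tail vein after 10 weeks of HFD, and RNA was taken 8 weeks after the vector. Of them, 3 received AAV8-TBG-Cre (genotype label METTL14 KO) and 3 received AAV8-TBG-GFP as control (genotype label WT, although these mice carry the same floxed alleles). The TBG promoter is active in hepatocytes, so recombination was directed to hepatocytes and not to the other cells of the liver. No group without a vector or without HFD was analysed here, and each mouse gave 1 library. The comparison asked which liver transcripts differ after hepatocyte-directed deletion of Mettl14 in diet-induced obesity.

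The libraries held between 20356459 and 21010524 expected counts. Mettl14 had 6.30, 6.43 and 5.81 CPM (counts scaled to library size by the TMM method of edgeR) in the AAV8-TBG-GFP livers and 4.96, 5.38 and 4.86 CPM in the AAV8-TBG-Cre livers, values being given here and throughout in the order of replicate number. It was lower in each AAV8-TBG-Cre library than in any AAV8-TBG-GFP library, by a log2 fold change of -0.29 ± 0.15 (SE) that missed the threshold in edgeR (adjusted p = 0.337). The hepatocyte transcript Alb stood between 54608 and 80785 CPM in all 6 libraries, which fits the tissue label. AAV8-TBG-Cre replicate 2 stood apart in scaling, with a TMM factor of 1.18 against 0.913 to 1.02 in the other 5 libraries. In the labels AAV8-TBG-Cre replicate 1 and the first 2 AAV8-TBG-GFP replicates have 2-digit library names and the other 3 libraries have 4-digit names, and nothing there says what the names mark. Group differences within each form of name are therefore given beside the results. Each rests on a single library on one side, AAV8-TBG-Cre replicate 1 among 2-digit names and AAV8-TBG-GFP replicate 3 among 4-digit names.

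Lpl rose and was the only one of the 10 genes to change at a Benjamini-Hochberg adjusted p under 0.05 in edgeR. Among all 13431 genes tested, 0.484% were higher and 0.447% were lower at that threshold. At the looser threshold of the study, an unadjusted p under 0.05 with a fold change of at least 1.2, Lpl, Slc27a1 and Fabp7 were higher and Fabp2 and Slc27a4 were lower, beside 12.0% of all genes higher and 8.41% lower. The CPM of the groups did not overlap for Lpl, Fabp2 and Slc27a4, 3 of the 10, against 27.0% of all genes tested. The median log2 fold change of the 10 genes was -0.22, with 4 above 0, and that of all genes tested was -0.01. These shares rest on 1 to 3 genes each, and the share without overlap was near that of all genes.

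**Figure D1:**
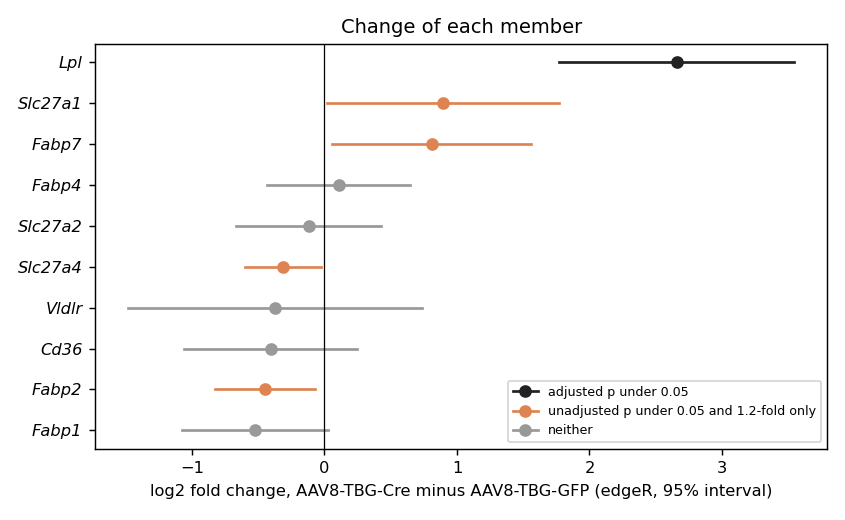
Log2 fold change of each of the 10 genes (x axis, AAV8-TBG-Cre minus AAV8-TBG-GFP, edgeR, 3 mice per group), with points for the estimate and lines for the 95% interval, coloured by the threshold passed. Lpl, at 2.66, stands apart from the other 9 genes, which lie between -0.52 and 0.89.

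Lpl encodes lipoprotein lipase, which hydrolyses the triglyceride of chylomicrons and VLDL (NCBI gene 16956, chr8:68880555-68906932 in GRCm38.p6). It had 16.9, 12.7 and 26.3 CPM in the AAV8-TBG-GFP livers and 81.8, 181 and 90.3 CPM in the AAV8-TBG-Cre livers. Every AAV8-TBG-Cre library lay above every AAV8-TBG-GFP library, and AAV8-TBG-Cre replicate 2 was the highest of the 6. The means were 18.6 ± 7.0 CPM and 118 ± 54.8 CPM (SD, n = 3 each), a fitted log2 fold change of 2.66 ± 0.38 (SE, 95% interval 1.77 to 3.55, edgeR adjusted p = 0.0363), or 6.31-fold. An exact two-sided permutation test of the CPM gave p = 0.1, the smallest p that 3 against 3 mice can give. The log2 ratio of group means was 2.47 among libraries with 2-digit names and 2.36 among those with 4-digit names, each with a single library in one group. Leaving out 1 library at a time kept the log2 fold change between 2.21 and 2.98, but the adjusted p stayed under 0.05 only without AAV8-TBG-Cre replicate 1 and lay between 0.0210 and 0.148 over the 6 fits. In bulk tissue, a change in the number of cells of a type and a change in RNA per cell cannot be told apart, for Lpl and for every gene that follows.

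Markers of other liver cells moved with the vector as well. At the unadjusted threshold 12.0% of all genes tested were higher and 8.41% were lower. These shares stand beside the marker counts here and in the next paragraph. All 6 markers of lipid-associated macrophages (Trem2, Gpnmb, Cd9, Spp1, Itgax and Lgals3) were higher at the unadjusted threshold, with a median log2 fold change of 2.02, and Spp1, which encodes osteopontin, also passed the adjusted threshold (adjusted p = 0.0444). Their summed CPM was 56.9 to 118 in AAV8-TBG-GFP and 300 to 614 in AAV8-TBG-Cre livers, highest in AAV8-TBG-Cre replicate 2, the library that also had the most Lpl. Spp1 alone made up most of this sum in every library. It had 89.0, 38.0 and 73.3 CPM in the AAV8-TBG-GFP livers and 295, 457 and 219 CPM in the AAV8-TBG-Cre livers. Gpnmb overlapped between the groups, at 5.03, 3.32 and 8.59 CPM against 5.58, 54.7 and 21.5 CPM. For Trem2, Itgax and Lgals3, AAV8-TBG-Cre replicate 1 (3.25, 3.87 and 12.3 CPM) lay close above AAV8-TBG-GFP replicate 3 (2.67, 3.14 and 10.4 CPM). Of 8 Kupffer cell and macrophage markers, Vsig4, Adgre1, Cd68, Csf1r and Cd5l were higher (172 to 199 against 242 to 327 CPM, summed over the 8). Cd5l, a secreted macrophage protein, was past the adjusted threshold (edgeR adjusted p = 0.0471). Clec4f, Timd4 and Marco passed neither threshold, with log2 fold changes of 0.29, 0.29 and -0.75. Of 7 cholangiocyte markers, all but Krt23 were higher (15.1 to 18.8 against 38.7 to 92.1 CPM, summed over the 7). Cldn4 and Sox9 were past the adjusted threshold (edgeR adjusted p = 0.0409 and 0.0454). Of 8 stellate cell and fibroblast markers, Pdgfrb, Col1a1 and Col3a1 were higher (219 to 334 against 403 to 839 CPM, summed over the 8). The rest passed neither threshold, with log2 fold changes of -0.37 for Acta2, -0.25 for Lrat, -0.10 for Reln, 0.13 for Des and 0.38 for Dcn. The part of these cell types in the Lpl result was not tested.

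No adipocyte or endothelial marker was higher at either threshold. Of the adipocyte markers, Adipoq, Plin1 and Retn stayed at or below 0.575 CPM in all 6 libraries and were too low to test, and the 7 markers together had 111 to 185 CPM in AAV8-TBG-GFP and 45.7 to 60.0 CPM in AAV8-TBG-Cre livers. Plin4 and Lipe made up most of that sum in every library. Within that list Cfd, which encodes adipsin, fell from 18.1 ± 7.97 to 0.668 ± 0.0825 CPM (SD, n = 3 each, edgeR adjusted p = 0.0149), and Plin4, a lipid droplet protein, also passed the unadjusted threshold, lower (log2 fold change -1.74, adjusted p = 0.0509). Of 8 endothelial markers, all had log2 fold changes below 0 and Stab2 passed the unadjusted threshold (133 to 210 against 135 to 161 summed CPM). Of 8 hepatocyte markers, Cps1 was higher and Ttr lower at the unadjusted threshold. The 8 markers together had 99607 to 117660 CPM in AAV8-TBG-GFP and 79401 to 106560 CPM in AAV8-TBG-Cre livers. Alb made up most of that sum in every library.

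**Figure D2:**
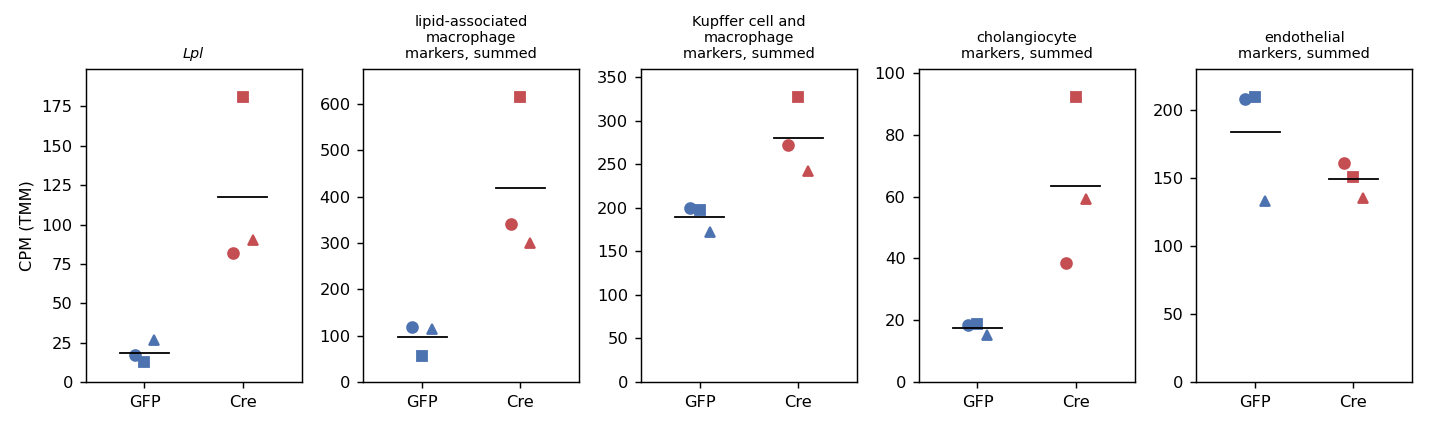
CPM (y axes, starting at 0) of Lpl and of the summed markers of 4 liver cell types in 3 AAV8-TBG-GFP (GFP) and 3 AAV8-TBG-Cre (Cre) livers, with a circle, square and triangle for replicates 1, 2 and 3 and lines at the group means. AAV8-TBG-Cre replicate 2 is highest for Lpl (181 CPM), lipid-associated macrophage markers (614 CPM) and cholangiocyte markers (92.1 CPM), and the endothelial sums of the groups overlap. Spp1 makes up most of the lipid-associated macrophage sum in every library.

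By a rule set on likeness alone, the genes whose log2 CPM across the 6 libraries lay closest to that of Lpl, out of 12366 candidates, included Dcdc2a, Clcf1, St14 and Mdk. Their root mean square distances from Lpl, each gene centred on its own mean, were 0.239, 0.247, 0.249 and 0.289 log2 units, and their log2 fold changes were 2.25, 2.59, 3.11 and 2.34. Each was highest in AAV8-TBG-Cre replicate 2, as Lpl was. The measure uses the same libraries as the contrast and describes these 6 livers only.

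Of 9 partners and regulators of lipoprotein lipase, 1 had a log2 fold change above 0 and 8 below, and 2 passed the unadjusted threshold, both lower. Among all genes tested, 12.0% were higher and 8.41% were lower at that threshold, and a count of 2 genes is too small to set against these shares. Lmf1 encodes the factor that lipoprotein lipase needs to fold in the endoplasmic reticulum. It had 56.2, 57.0 and 61.5 CPM in the AAV8-TBG-GFP livers and 42.0, 34.2 and 41.2 CPM in the AAV8-TBG-Cre livers, with no overlap (log2 fold change -0.57 ± 0.11 SE, edgeR adjusted p = 0.0599). Angptl4, an inhibitor of lipoprotein lipase, had 228, 178 and 257 CPM against 160, 110 and 82.4 CPM, again with no overlap (log2 fold change -0.91 ± 0.25 SE, edgeR adjusted p = 0.107). Gpihbp1, which holds the enzyme on capillary endothelium, had a log2 fold change of -0.42 (edgeR adjusted p = 0.273), and Apoc2, the activator of the enzyme, was also not past either threshold. None of the 9 was higher at either threshold.

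Vldlr encodes the VLDL receptor, which binds triglyceride-rich lipoproteins (NCBI gene 22359, chr19:27216480-27254231 in GRCm38.p6). It was the least abundant of the 10 per length, at 0.630, 0.470 and 1.02 FPKM (fragments scaled to transcript length and sequencing depth by the authors) in the AAV8-TBG-GFP livers and 0.310, 1.18 and 0.440 FPKM in the AAV8-TBG-Cre livers. The groups overlapped, with AAV8-TBG-Cre replicate 2 highest and AAV8-TBG-Cre replicate 1 lowest of the 6. The log2 fold change in CPM was -0.37 ± 0.48 (SE, 95% interval -1.48 to 0.74, edgeR adjusted p = 0.707), and the interval covered both directions. The log2 ratio of group means was -0.94 among 2-digit and -0.63 among 4-digit library names. With the name form as covariate the log2 fold change was -0.77 (edgeR adjusted p = 0.259), past neither threshold. The authors' expected counts placed all Vldlr fragments on an 8327-base transcript in 4 libraries and all on an 8243-base transcript in AAV8-TBG-Cre replicates 1 and 3. These transcripts differ in length by 84 bases, and the assignment was all or none in every library. Of 8 other lipoprotein receptors and liver lipases, Lsr, the lipolysis-stimulated lipoprotein receptor, was higher at the unadjusted threshold (log2 fold change 0.34, edgeR adjusted p = 0.235) and the other 7, among them Lrp1 and Lipc, passed neither threshold. The unadjusted threshold called 12.0% of all genes tested higher.

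Cd36 encodes a scavenger receptor that takes up long-chain fatty acids and oxidised lipoproteins (NCBI gene 12491, chr5:17781690-17888959 in GRCm38.p6). It had 158, 118 and 238 CPM in the AAV8-TBG-GFP livers and 94.7, 158 and 135 CPM in the AAV8-TBG-Cre livers. The groups overlapped, and the spread within AAV8-TBG-GFP covered 2 of the 3 AAV8-TBG-Cre livers. Its log2 fold change was -0.41 ± 0.28 (SE, 95% interval -1.06 to 0.25, edgeR adjusted p = 0.461), and the log2 ratio of group means was -0.54 and -0.70 among 2-digit and 4-digit library names. With the name form as covariate Cd36 passed the unadjusted threshold, at -0.62 (edgeR adjusted p = 0.0857), and without AAV8-TBG-GFP replicate 3 its log2 fold change was -0.10. Of the Cd36 FPKM, a 3399-base transcript took 51.9%, 42.5% and 53.7% in AAV8-TBG-GFP and 60.9%, 58.0% and 58.2% in AAV8-TBG-Cre livers, and a 3450-base transcript took 35.8%, 38.6% and 34.4% against 27.1%, 31.8% and 26.4%. The shares of both transcripts did not overlap between groups, but they are parts of the same total and not separate observations. A 3542-base transcript took 12.3%, 19.0% and 11.9% against 12.0%, 10.2% and 14.6% and overlapped. All these shares are estimates that split fragments shared between transcripts. How often transcript shares separate among other genes was not examined. Among 6 tested genes of CD36 trafficking and other uptake proteins, Cav1 and Cavin1, which form caveolae, and Msr1, a macrophage scavenger receptor, were higher at the unadjusted threshold, with log2 fold changes of 0.64, 0.64 and 0.77 (edgeR adjusted p = 0.222, 0.205 and 0.118). That threshold called 12.0% of all genes tested higher. The acyltransferases Zdhhc4 and Zdhhc5, which palmitoylate CD36, and Got2, the mitochondrial aspartate aminotransferase also described at the plasma membrane, passed neither threshold.

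The FATPs had no common direction. Slc27a2 encodes FATP2, which is both a transporter and a very long-chain acyl-CoA synthetase (NCBI gene 26458, chr2:126553024-126588243 in GRCm38.p6). It had 1672, 2056 and 2273 CPM in the AAV8-TBG-GFP livers and 1613, 1512 and 2400 CPM in the AAV8-TBG-Cre livers, with the highest and the lowest of the 6 both in the AAV8-TBG-Cre group. Its log2 fold change was -0.12 ± 0.23 (SE, 95% interval -0.66 to 0.43, edgeR adjusted p = 0.811), and on the FPKM scale it turned to 0.03. Per length, Slc27a2 made up 63.9% to 73.6% of the FPKM of the 6 FATP genes in every library, and Slc27a5, the bile acyl-CoA synthetase FATP5, made up 24.3% to 34.4%. These shares overlapped between groups, and Slc27a5 passed neither threshold (log2 fold change -0.22, edgeR adjusted p = 0.556).

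Slc27a1 encodes FATP1, best known from muscle and adipose tissue (NCBI gene 26457, chr8:71568728-71587307 in GRCm38.p6). It had 15.8, 20.7 and 31.0 CPM in the AAV8-TBG-GFP livers and 21.1, 56.8 and 47.5 CPM in the AAV8-TBG-Cre livers. AAV8-TBG-Cre replicates 2 and 3 lay above all controls, while AAV8-TBG-Cre replicate 1 lay among them. The gene passed the unadjusted threshold, at a log2 fold change of 0.89 ± 0.38 (SE, 95% interval 0.02 to 1.77, edgeR adjusted p = 0.230). Among 2-digit names the log2 ratio was 0.21 and among 4-digit names 0.75, and a fit that took the name form into account gave 0.49. Without AAV8-TBG-Cre replicate 1 it was 1.21 with an adjusted p of 0.0408 in edgeR, and without AAV8-TBG-Cre replicate 2 it was 0.61 with an adjusted p of 0.558. Slc27a1 remained a minor FATP in every library, at 0.510% to 0.811% of the family's FPKM in AAV8-TBG-GFP and 0.689% to 2.17% in AAV8-TBG-Cre livers.

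Slc27a4 encodes FATP4, the main FATP of the small intestine (NCBI gene 26569, chr2:29802634-29817522 in GRCm38.p6). It had 58.1, 58.1 and 65.3 CPM in the AAV8-TBG-GFP livers and 41.6, 52.8 and 51.6 CPM in the AAV8-TBG-Cre livers. No AAV8-TBG-Cre library reached the lowest control. This was a log2 fold change of -0.31 ± 0.12 (SE, 95% interval -0.60 to -0.03, edgeR adjusted p = 0.205), past the unadjusted threshold, with log2 ratios of -0.48 and -0.32 among 2-digit and 4-digit names. On the FPKM scale the groups overlapped, at 13.9, 13.6 and 14.7 FPKM against 10.5, 15.4 and 12.6 FPKM, and limma on log2(FPKM + 1) did not call the gene. Slc27a3, a low FATP, was higher at the unadjusted threshold (0.649 ± 0.157 against 1.23 ± 0.395 CPM, SD, n = 3 each, edgeR adjusted p = 0.212).

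The promoter windows of Fabp1, Fabp2 and Fabp7 are shown because these genes of 1 family differed in the direction of their fold changes. The windows run from 250 bases before to 50 bases after the annotated start, on the plus strand of GRCm38.p6, from RefSeq. They are Fabp1 at chr6:71199629-71199928, Fabp2 at chr3:122894822-122895121 and Fabp7 at chr10:57784673-57784972. Capitals mark matches to 2 copies of AGGNCA set 1 base apart, the direct repeat bound by PPARα with RXR and by HNF4α, and to TATAAA, both searched on either strand.
Fabp1: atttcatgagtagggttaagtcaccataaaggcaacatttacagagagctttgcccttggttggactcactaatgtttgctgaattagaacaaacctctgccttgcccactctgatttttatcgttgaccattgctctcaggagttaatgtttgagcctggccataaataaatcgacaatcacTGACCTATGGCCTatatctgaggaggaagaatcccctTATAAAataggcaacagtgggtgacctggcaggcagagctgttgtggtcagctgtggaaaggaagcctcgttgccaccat
Fabp2: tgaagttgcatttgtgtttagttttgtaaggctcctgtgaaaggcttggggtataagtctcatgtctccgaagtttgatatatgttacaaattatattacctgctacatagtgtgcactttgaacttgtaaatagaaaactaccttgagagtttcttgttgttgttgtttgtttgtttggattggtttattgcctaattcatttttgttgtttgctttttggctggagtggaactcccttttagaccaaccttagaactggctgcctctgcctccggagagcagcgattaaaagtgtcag
Fabp7: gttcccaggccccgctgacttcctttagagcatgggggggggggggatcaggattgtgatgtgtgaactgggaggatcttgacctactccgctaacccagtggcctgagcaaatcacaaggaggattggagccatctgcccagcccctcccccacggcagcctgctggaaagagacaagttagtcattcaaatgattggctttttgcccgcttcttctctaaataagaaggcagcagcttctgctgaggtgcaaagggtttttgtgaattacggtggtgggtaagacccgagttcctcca
The repeat was found in the Fabp1 window, at chr6:71199812-71199824, 67 to 55 bases before the start and on the minus strand, and in no other window of the 8 members that matched the promoter table. It occurred in 125 of 32851 promoters of the same length (0.381%). The Fabp1 window also held TATAAA, 30 bases before the start, as did 13.6% of all promoters. These are matches of letters and no binding was measured.

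Fabp1 encodes liver FABP, one of the most abundant cytosolic proteins of hepatocytes (NCBI gene 14080, chr6:71199879-71205034 in GRCm38.p6). It had 3017, 2780 and 3193 CPM in the AAV8-TBG-GFP livers and 1681, 1778 and 2799 CPM in the AAV8-TBG-Cre livers. AAV8-TBG-Cre replicates 1 and 2 lay well below all controls, while replicate 3 was just above the lowest control. The means were 2997 ± 207 and 2086 ± 619 CPM (SD, n = 3 each), and the log2 fold change of -0.52 ± 0.24 (SE, 95% interval -1.08 to 0.03) missed both thresholds (edgeR adjusted p = 0.262). Fabp1 passed the unadjusted threshold in 3 of 9 other tools and settings, at -0.53 in DESeq2, the tool of the study, at -0.56 with the replicate block and at -0.63 with the name form as covariate, and its adjusted p stayed between 0.127 and 0.618 over all 15 other fits. The log2 ratio was -0.79 among 2-digit and -0.48 among 4-digit names. Fabp1 took 97.9% to 98.6% of the FPKM of the FABP genes in every library, so the summed FABP level followed it.

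Fabp2 encodes intestinal FABP, which is also transcribed in mouse liver (NCBI gene 14079, chr3:122895072-122899506 in GRCm38.p6). It had 70.5, 64.9 and 77.0 CPM in the AAV8-TBG-GFP livers and 44.3, 46.5 and 64.8 CPM in the AAV8-TBG-Cre livers. The groups were separate, but AAV8-TBG-Cre replicate 3, the highest of its group as for Fabp1, nearly met the lowest control. Fabp2 passed the unadjusted threshold at a log2 fold change of -0.45 ± 0.16 (SE, 95% interval -0.82 to -0.07, edgeR adjusted p = 0.177), with log2 ratios of -0.61 and -0.47 among 2-digit and 4-digit names. In FPKM the groups overlapped, at 71.0, 64.3 and 73.2 FPKM against 47.2, 57.0 and 66.8 FPKM, and limma on log2(FPKM + 1) did not call it. The intestinal transcription factors Cdx1 and Cdx2 were at 0 in all 6 libraries. Of the other intestinal epithelium markers, Vil1, which bile duct epithelium also expresses, was higher at the unadjusted threshold (log2 fold change 2.70, edgeR adjusted p = 0.0872), Lgals4 passed neither and Muc2 was too low to test.

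Fabp4 encodes the FABP of adipocytes and macrophages (NCBI gene 11770, chr3:10204342-10208616 in GRCm38.p6). It had 12.8, 8.62 and 7.12 CPM in the AAV8-TBG-GFP livers and 9.26, 9.41 and 12.1 CPM in the AAV8-TBG-Cre livers, so that all AAV8-TBG-Cre livers lay within the range of the controls. It had a log2 fold change of 0.11 ± 0.23 (SE, 95% interval -0.43 to 0.65, edgeR adjusted p = 0.828), and the log2 ratio was -0.21 among 2-digit and 0.59 among 4-digit names. Its family member Fabp5, found in epidermis, macrophages and other cells, was not among the 10 genes and had the smallest unadjusted p of the other FABP and FATP genes. Fabp5 had 4.27, 6.84 and 5.29 CPM in the AAV8-TBG-GFP livers and 10.4, 12.4 and 26.5 CPM in the AAV8-TBG-Cre livers, with no overlap (log2 fold change 1.59 ± 0.37 SE, edgeR adjusted p = 0.0793). Fabp5 made up 0.0681% to 0.118% of FABP FPKM in AAV8-TBG-GFP and 0.295% to 0.454% in AAV8-TBG-Cre livers. Fabp4 passed neither threshold, and its relation to the macrophage markers was not tested.

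Fabp7 encodes brain FABP, which binds very long-chain polyunsaturated fatty acids (NCBI gene 12140, chr10:57784923-57788450 in GRCm38.p6). It had 1.27, 1.28 and 1.83 CPM in the AAV8-TBG-GFP livers and 2.82, 3.16 and 1.68 CPM in the AAV8-TBG-Cre livers, from 25, 25, 35, 59, 77 and 35 expected counts. AAV8-TBG-Cre replicates 1 and 2 lay above all controls and replicate 3, the highest of its group for Fabp1, lay within them. It passed the unadjusted threshold at a log2 fold change of 0.81 ± 0.32 (SE, 95% interval 0.06 to 1.56, edgeR adjusted p = 0.212), and the log2 ratio was 1.15 among 2-digit and 0.40 among 4-digit names. At this depth a single library's value rests on few fragments, and counting error adds to the spread between mice.

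Compared per length, the 10 genes spanned several orders of magnitude in the controls. In order of mean FPKM in AAV8-TBG-GFP they were Fabp1 at 6075 ± 338, Slc27a2 at 811 ± 103, Fabp2 at 69.5 ± 4.62, Cd36 at 46.3 ± 15.3, Fabp4 at 14.5 ± 4.82, Slc27a4 at 14.1 ± 0.573, Slc27a1 at 7.49 ± 2.36, Lpl at 4.27 ± 1.48, Fabp7 at 1.85 ± 0.352 and Vldlr at 0.707 ± 0.283 FPKM (SD, n = 3). Of the neighbours in this order, Fabp4 and Slc27a4, and Slc27a1 and Lpl, overlapped between single livers. In AAV8-TBG-Cre livers Lpl reached 31.4 ± 17.9 FPKM and its mean stood above those of Fabp4, Slc27a4 and Slc27a1, at 17.4 ± 2.04, 12.8 ± 2.45 and 16.0 ± 8.07 FPKM. Lpl still overlapped Slc27a1 there, and Fabp2 overlapped Cd36 at 57.0 ± 9.81 against 40.1 ± 13.0 FPKM. The first places of Fabp1 and Slc27a2 were the same in both groups.

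**Figure D3:**
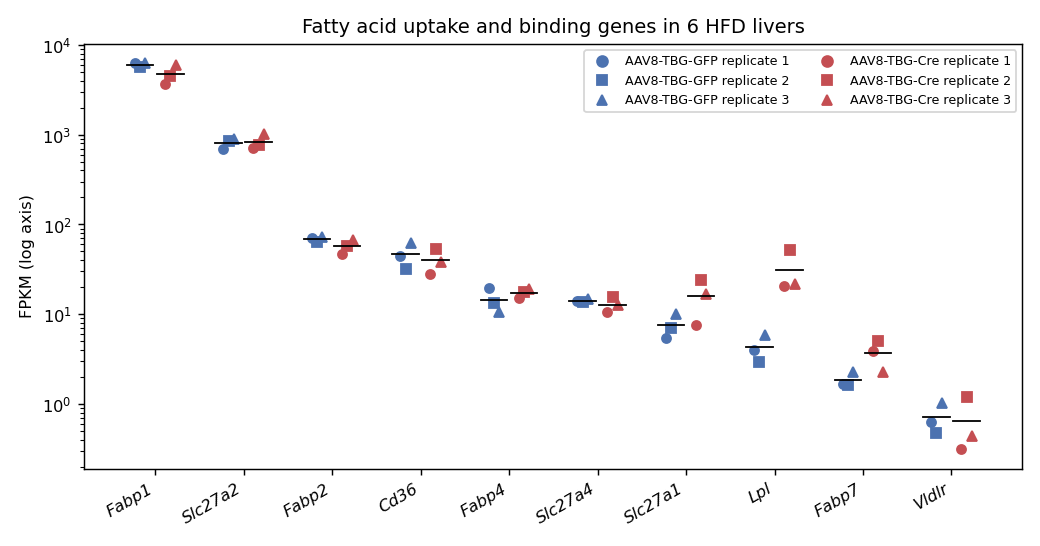
FPKM (y axis, log scale) of the 10 genes, ordered by their mean in AAV8-TBG-GFP livers, with 1 point per liver (blue for AAV8-TBG-GFP, red for AAV8-TBG-Cre, n = 3 each) and a line at each group mean. Lpl is the gene whose groups separate, from 2.94 to 5.87 FPKM in AAV8-TBG-GFP and from 20.4 to 52.0 FPKM in AAV8-TBG-Cre livers.

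Ratios within a liver set the genes against each other without library scaling. The 6 ratios were chosen after the values were seen. Lpl to Cd36 in FPKM was 0.0908, 0.0913 and 0.0938 in AAV8-TBG-GFP and 0.730, 0.968 and 0.567 in AAV8-TBG-Cre livers, so the controls were nearly equal in this ratio although Cd36 itself ranged from 32.2 to 62.6 FPKM in them. Slc27a1 to Slc27a4 was 0.392, 0.513 and 0.685 against 0.731, 1.55 and 1.33, with FATP1 above FATP4 in 2 of the 3 AAV8-TBG-Cre livers and in no control. Fabp1 to Slc27a2 was 9.0, 6.75 and 7.01 against 5.20, 5.87 and 5.82. The groups did not overlap in these 3 ratios, which is a description only, since the ratios were picked with the values in view. Fabp1 to Fabp2 was 88.4, 88.4 and 85.7 against 78.3, 79.0 and 89.2 and overlapped. The remaining ratios, Lpl to Slc27a1 and Fabp4 to Fabp5, were also separate, the former higher and the latter lower in AAV8-TBG-Cre livers.

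Beyond the 10 genes, 43 of 48 genes of fatty acid activation, lipoprotein handling and their transcriptional control could be tested. Their median log2 fold change was -0.17, with 12 above 0, where all 13431 genes tested had a median of -0.01 with 6585 above 0. At the adjusted threshold 0 were higher and 1 was lower (0.484% and 0.447% of all genes), and at the unadjusted threshold 7 were higher and 7 were lower (12.0% and 8.41% of all genes). Of the acyl-CoA synthetases, which trap fatty acids as coenzyme A esters, Acsl4, which prefers arachidonate, was higher at the unadjusted threshold (47.0 ± 7.90 against 79.1 ± 9.08 CPM, SD, n = 3 each, edgeR adjusted p = 0.0619), while Acsl1, the most abundant, was not called (log2 fold change -0.48, edgeR adjusted p = 0.320).

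Of 12 transcription factors known to act on these genes, none was higher and 5 were lower at the unadjusted threshold, all of them nuclear receptors, beside 12.0% higher and 8.41% lower among all genes. Nr1i3, which encodes the xenobiotic receptor CAR, had 181, 165 and 194 CPM in the AAV8-TBG-GFP livers and 84.7, 117 and 88.0 CPM in the AAV8-TBG-Cre livers. It fell by 0.90 on the log2 scale (SE 0.15) and was the 1 gene of the 48 past the adjusted threshold (edgeR adjusted p = 0.0491). It lay at the edge of that threshold, and no gene of the 48 passed with RLE in place of TMM scaling. Ppara, the fatty acid sensor of hepatocytes, had 606, 615 and 572 CPM against 446, 371 and 437 CPM (log2 fold change -0.52 ± 0.14 SE, edgeR adjusted p = 0.0970). Pparg, the adipogenic receptor, had 21.9 ± 0.856 against 16.1 ± 1.28 CPM (SD, n = 3 each, adjusted p = 0.0821 in edgeR), and Nr1i2 (PXR) and Nr1h4 (FXR) had log2 fold changes of -0.49 and -0.48. The others, among them Hnf4a, Cebpa, Ppard, Rxra, Ahr and Nr1h3, passed neither threshold.

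**Figure D4:**
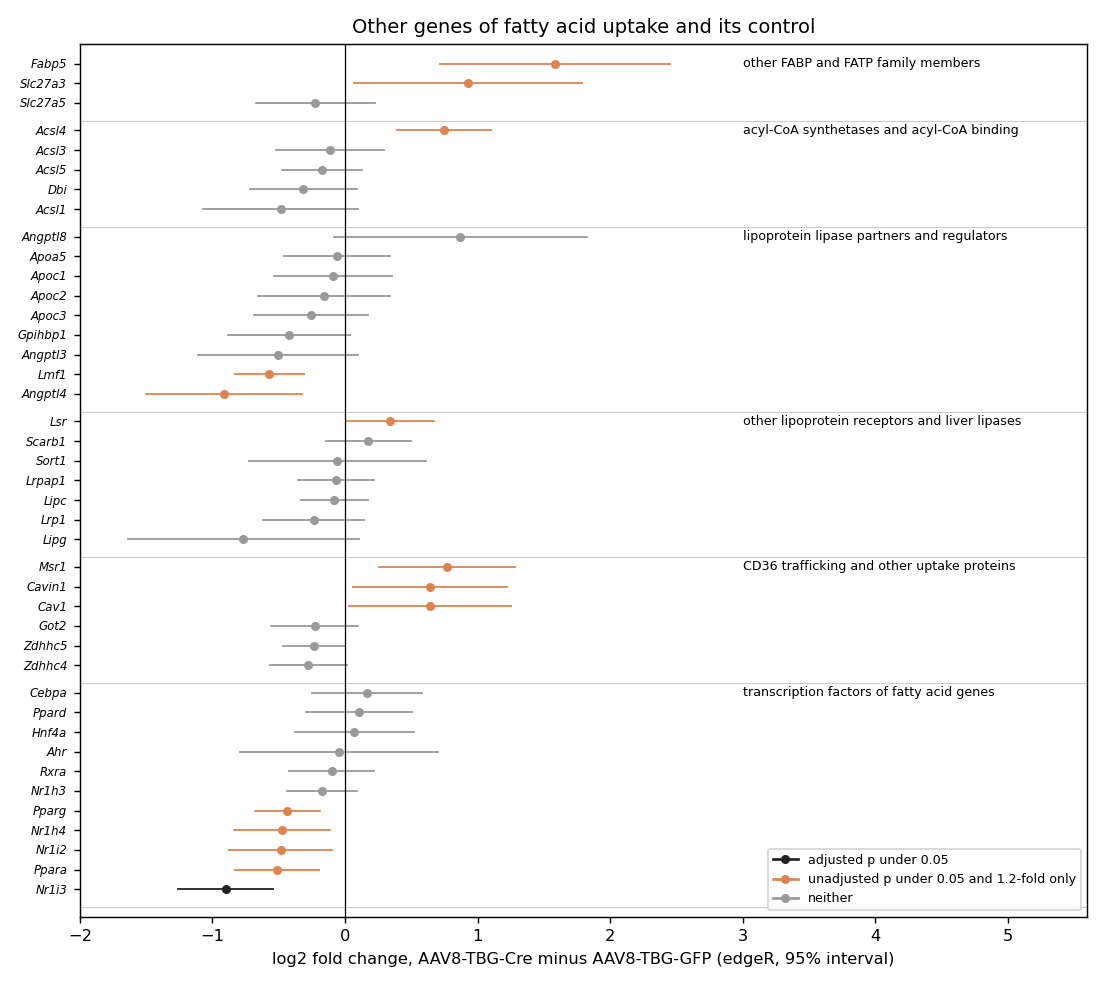
Log2 fold change (x axis, AAV8-TBG-Cre minus AAV8-TBG-GFP, edgeR, 3 mice per group) of tested genes of fatty acid uptake and its control, in 6 lists, with lines for the 95% interval. Fabp5, at 1.59, is furthest to the right, and Nr1i3, at -0.90, is the 1 gene drawn in black for an adjusted p under 0.05.

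Lpl kept its direction and passed the unadjusted threshold in all 15 other fits, with adjusted p between 8.96e-11 (DESeq2) and 0.148 (edgeR without AAV8-TBG-GFP replicate 2). Of the other 4 genes past the unadjusted threshold, Fabp2 and Slc27a4 kept that call in 6 of 9 other tools and settings and lost it in the 3 limma fits on FPKM, where the median of all genes lay 0.07 to 0.14 higher on the log2 scale than in edgeR. Slc27a1 lost it in limma without a filter, and Fabp7 lost it with the replicate block and with the name form as covariate. With 1 library left out, each kept its call in 2 of 6 fits. These were the fits without AAV8-TBG-GFP replicate 3 or AAV8-TBG-Cre replicate 1 for Slc27a1, without AAV8-TBG-GFP replicate 3 or AAV8-TBG-Cre replicate 3 for Fabp7, without AAV8-TBG-GFP replicate 2 or AAV8-TBG-Cre replicate 3 for Fabp2, and without AAV8-TBG-Cre replicate 2 or 3 for Slc27a4. Fabp1 passed the unadjusted threshold without AAV8-TBG-Cre replicate 3, at a log2 fold change of -0.80, and Vldlr without AAV8-TBG-Cre replicate 2, at -1.04. Among the 9 other tools and settings, Fabp1 gained the call in 3 and Cd36 in 1, as given with those genes. Slc27a2, Fabp4 and Vldlr changed sign in at least 1 fit.

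**Figure D5:**
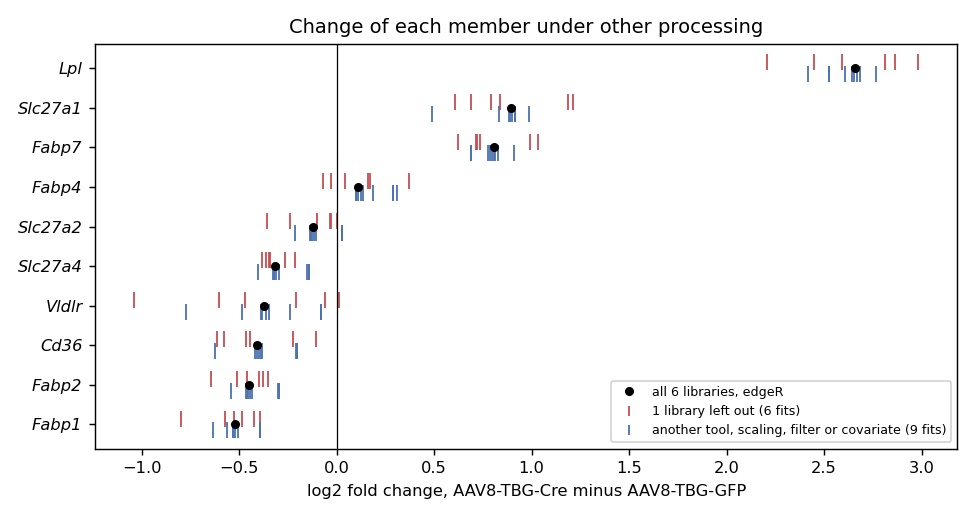
Log2 fold change of each of the 10 genes (x axis, AAV8-TBG-Cre minus AAV8-TBG-GFP) with all 6 libraries in edgeR (black points), with 1 library left out (red ticks, 6 fits) and with another tool, scaling, filter or covariate (blue ticks, 9 fits). All Lpl ticks lie between 2.21 and 2.98, and those of Slc27a2, Fabp4 and Vldlr fall on both sides of 0.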

How the data were processed

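Liver RNA of 6 mice was analysed, 3 per vector, grouped by the sample titles. The authors deposited expected counts and FPKM per transcript, and FPKM per gene rounded to 2 decimals. The submitters' processing notes name HISAT2, Bowtie2, RSEM and mm10, while the published methods name STAR, HTSeq and DESeq2; versions are not given in the sources used here. Expected counts, of which 45.4% were whole, were summed per NCBI gene ID and rounded. No pair of libraries of a group agreed within sampling noise (chi-square per gene 24.9 to 99.1).

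All genes were fitted together by the quasi-likelihood test of edgeR 4.0.16 (R 4.3.3) with TMM scaling, the filter filterByExpr and no factor but the vector, and Benjamini-Hochberg adjustment ran over all 13431 genes tested. On simulated counts of this comparison (13295 genes), 92.8% of 195 changed genes were recovered and 7.18% of calls were false. The simulation held no effect of the library name form. Both shares apply only to changes of the simulated size, which was larger than that of each of the 10 genes except Lpl. They do not give the power to detect smaller changes. A gene that passed neither threshold is therefore not shown to be unchanged. Alternatives were DESeq2 1.42.0, RLE, other filters, a replicate block, the library name form as covariate, limma 3.58.1 on log2(FPKM + 1) with genes of at least 0.5 FPKM in at least 3 libraries or with all genes, limma with a pseudocount of 0.1, and leaving out each library.

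The 10 genes, the lists and the tests were chosen with earlier results of these data known. The text names every member, and of each other list any gene past the adjusted threshold and that with the smallest p. Other list genes were named after their values were seen. A few genes these rules would name are not reported here, though counts include them. Gene coordinates and promoters are RefSeq's on GRCm38.p6, to which mm10 corresponds. No sample was left out. Intervals and SD cover 3 mice per group, and CPM near 1 carry large counting error.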

Additional observations from a re-analysis of the deposited data

How the results depend on the processing

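Over the 10 genes and 15 alternatives, 133 of 150 log2 fold changes kept their direction and side of the adjusted threshold, 9 lost the adjusted call, 1 gained it and 7 changed sign. All 9 losses were of Lpl. The gain was Slc27a1 without AAV8-TBG-Cre replicate 1. Changes of sign were Slc27a2 in limma (0.030 with each pseudocount and without a filter) and without AAV8-TBG-Cre replicate 2 (0.0011), Fabp4 without AAV8-TBG-GFP replicate 3 (-0.072) and without AAV8-TBG-Cre replicate 3 (-0.029), and Vldlr without AAV8-TBG-GFP replicate 3 (0.014). With 1 library left out, Slc27a2 ranged from -0.36 to 0.0011, Fabp4 from -0.072 to 0.37 and Vldlr from -1.04 to 0.014. The cause was not tested.

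Of the 10 genes, 1 passed the adjusted threshold, against 0 in the 3 limma fits and 0 to 2 with 1 library left out. At the unadjusted threshold 5 passed (3 higher, 2 lower), against 6 in DESeq2 (3 higher, 3 lower), 6 with the library name form as covariate (2 higher, 4 lower), 3, 3 and 2 in limma on log2(FPKM + 1), on log2(FPKM + 0.1) and without a filter, and 1 to 5 with 1 library left out. Of the 48 further genes, 1 passed the adjusted threshold, against 7 in DESeq2, 3 without a filter, 0 with RLE, with at least 10 counts in every library and in limma, and 0 to 9 with 1 library left out (9 without AAV8-TBG-Cre replicate 1). At the unadjusted threshold 14 passed, against 9 to 17 with 1 library left out. Of all genes, 125 passed the adjusted threshold, against 1157 in DESeq2, 372 without a filter, 76 with at least 10 counts in every library, 214 with the library name form as covariate, 22, 27 and 9 in limma, and 0 to 928 with 1 library left out (928 without AAV8-TBG-Cre replicate 1). The share of lower genes among unadjusted calls was 41.1% in edgeR and 16.3%, 15.9% and 15.3% in limma.

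Deviations of same-numbered libraries of the groups had no common direction (r = 0.07, -0.29 and 0.24). Those of differently numbered libraries ran from -0.34 to 0.35. With 3 mice per group such values cannot tell whether the numbers pair mice. With the replicate block, 0 of the 10 genes, 0 of the 48 and 7 of all genes passed the adjusted threshold, and Lpl had a log2 fold change of 2.61 (edgeR adjusted p = 0.111).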
